A study of Homo sapiens with 10 samples.

Results

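The annexin family genes measured in HCT116 cells, a human colorectal cancer cell line, were *ANXA1*, *ANXA2*, *ANXA3*, *ANXA4*, *ANXA5*, *ANXA6*, *ANXA7*, *ANXA9*, *ANXA10* and *ANXA11*. They are 10 of the 13029 genes of the *ZMAT3* experiment and 10 of the 17642 genes of the p53 siRNA experiment. They were chosen by gene name, and the family was picked with earlier results of these comparisons known, so their differences are given as a description, without a p-value. The study asked which RNAs depend on the RNA-binding protein ZMAT3 and on p53, which activates *ZMAT3* transcription. In the first experiment 3 libraries came from a *ZMAT3*-WT clone and 3 from a *ZMAT3*-KO clone. The knockout was made with Cas9 and a pair of guides that flank the p53 response element in intron 2 of *ZMAT3*, and each genotype is 1 clone, so genotype and clone cannot be told apart. The sample labels of both clones carry the abbreviations EV and unt, which are not explained, and state that no drug was given. In the second experiment 2 libraries came from HCT116 cells transfected for 72 h with a control siRNA (siCTRL) and 2 from cells transfected with a pool of 4 siRNAs against p53 (sip53), also without drug.

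Annexins are cytosolic proteins that bind negatively charged phospholipids, phosphatidylserine above all, when calcium rises. Through a conserved core of calcium-binding repeats they dock on membranes, where they link vesicles to each other, to the actin cytoskeleton or to S100 partner proteins, and they gather at wounds of the plasma membrane. Their short N-terminal ends differ between members and set which partner each one binds. ANXA5 is known as the probe for phosphatidylserine on dying cells, and ANXA10 is a member of limited tissue distribution that is known from the gastric mucosa.

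The values of the *ZMAT3* experiment are log2 CPM (the log2 of counts scaled to the library total) and those of the siRNA experiment are FPKM (fragments per length of transcript, scaled likewise). All 6 *ZMAT3* libraries share one distribution, from -6.62 to 13.51 log2 CPM, so their values are not plain shares of the reads counted. The siRNA libraries sum to between 708634 and 829230 FPKM. The depth of the libraries is thus unknown in both experiments. Replicates correlated across genes, which do not count as samples, with a Pearson's r of 0.995 to 0.996 in the *ZMAT3* experiment and of 0.964 for siCTRL and 0.958 for sip53. As a check of the labels, *ZMAT3* was 7.43-fold lower in *ZMAT3*-KO cells (log2 difference -2.89, limma adjusted p = 3.8e-12). *CDKN1A*, the p53 target that encodes p21, was lower in both comparisons, with log2 differences of -0.53 in *ZMAT3*-KO and -3.80 in sip53 cells. The siCTRL replicate 1 and sip53 replicate 2 libraries deviated from their group means in the same direction, and 74.4% of the 14274 genes tested deviated in opposite directions in libraries of the same number, as did 8 of the 10 annexin genes (80.0%).

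The differences of the annexin genes in *ZMAT3*-KO cells were led by *ANXA10*, which was 13.3-fold higher than in *ZMAT3*-WT cells. *ANXA1* was 1.65-fold higher, and *ANXA3* was 1.94-fold lower. *ANXA2*, the most abundant member, stayed within the spread between its replicates. In sip53 cells *ANXA10* was higher as well, 2.19-fold with 0.1 FPKM added, at a low level of 0.92 to 2.67 FPKM over the 4 libraries. *ANXA4* stood at 0.577 of its siCTRL level there. With 2 libraries a group, neither gene passed a limma adjusted p of 0.05.

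Genes were called in the *ZMAT3* experiment at a limma adjusted p of 0.05. By this rule 6 of the 10 annexin genes were higher (*ANXA1*, *ANXA4*, *ANXA5*, *ANXA6*, *ANXA7* and *ANXA10*), beside 28.7% of all genes tested, and 1 was lower (*ANXA3*), beside 30.1%. The other 3, *ANXA2*, *ANXA9* and *ANXA11*, were not called. With a 1.5-fold change required as well, 2 were higher (*ANXA1* and *ANXA10*), beside 4.6% of all genes, and 1 was lower (*ANXA3*), beside 4.37%. The 3 *ZMAT3*-KO and 3 *ZMAT3*-WT libraries did not overlap for 8 of the 10, beside 64.2% of all genes, and overlapped for *ANXA2* and *ANXA9*. The median log2 difference of the 10 was 0.13, beside -0.0052 over all genes. Since the genes were selected on knowledge of these contrasts, nothing is read from their counts.

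**Figure D1:**
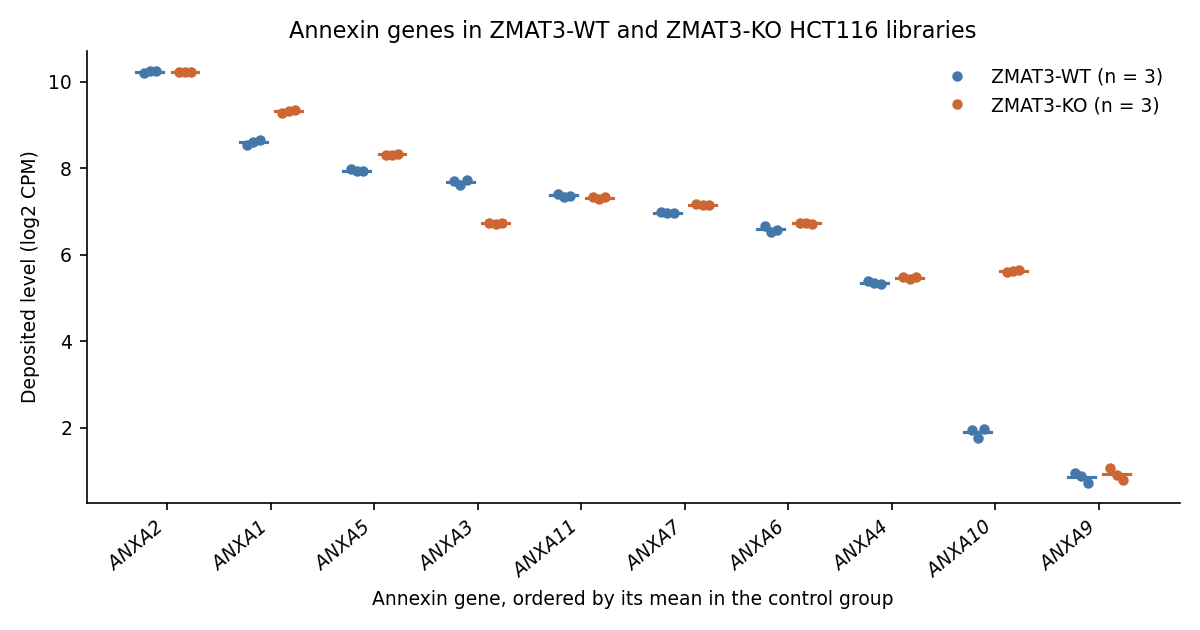
Deposited log2 CPM of the 10 annexin genes, ordered by their mean in *ZMAT3*-WT cells, in each of 3 *ZMAT3*-WT (blue) and 3 *ZMAT3*-KO (orange) libraries; points are libraries and bars are group means. The *ZMAT3*-KO points of *ANXA10* lie near 5.62 against 1.89 in *ZMAT3*-WT cells, and those of *ANXA3* lie below and those of *ANXA1* above the *ZMAT3*-WT points.

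The tissue markers of the clones moved as well. Of 10 colorectal epithelial markers, 7 had values, of which 4 keratins were lower in *ZMAT3*-KO cells (*KRT8*, log2 difference -0.94; *KRT18*, -0.82; *KRT19*, -1.75; *KRT20*, -1.47; largest limma adjusted p of these 2.4e-06) and 3 were not called (*EPCAM*, 0.01; *CDH1*, 0.05; *CDX2*, -0.09). Of all genes 30.1% were called lower. The summed level of the 7 markers was 5759 to 6085 CPM in *ZMAT3*-WT and 3161 to 3242 CPM in *ZMAT3*-KO libraries. The sum in the siRNA experiment was 3739 to 3975 FPKM in siCTRL and 3536 to 4172 FPKM in sip53 libraries. Of the 7 markers tested there, 1 was called at an unadjusted limma p of 0.05 (*EPCAM*, higher, limma adjusted p = 0.25). By that rule 5.86% of all genes tested were higher. Of 10 markers of fibroblasts, muscle, blood and endothelial cells, 2 had values in the *ZMAT3* experiment (*COL1A1* and *DES*), and these summed to 10.3 to 10.8 CPM in *ZMAT3*-WT and 11.7 to 12.5 CPM in *ZMAT3*-KO libraries. Of these *COL1A1* was called higher in *ZMAT3*-KO cells (log2 difference 0.16, limma adjusted p = 0.027), beside 28.7% of all genes, and *DES* was not. The siRNA table had rows for 4 of the 10, which summed to 8.5 to 11.7 FPKM in siCTRL and 19.5 to 29.2 FPKM in sip53 libraries, mostly through *DES*, while *CD14* and *VWF* had means of at most 0.14 FPKM. There *DES* was called higher at the unadjusted limma p (log2 difference 1.71, limma adjusted p = 0.12), beside 5.86% of all genes, and *COL1A1* was not. The part of these markers in the annexin values was not tested. In bulk RNA such as this, fewer cells of a kind and less RNA per cell cannot be told apart.

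*ANXA10* lies on the plus strand of chromosome 4 (168092537 to 168187736 in hg38, GENCODE release 44, which also gives the positions that follow). It was deposited at 1.95, 1.75 and 1.97 log2 CPM in *ZMAT3*-WT and at 5.60, 5.63 and 5.64 log2 CPM in *ZMAT3*-KO libraries. The groups were far from overlapping, and the *ZMAT3*-KO values were the closer to one another. The means were 1.89 ± 0.12 and 5.62 ± 0.019 log2 CPM (SD, n = 3), and the log2 difference was 3.73 (standard error 0.062). On the linear scale this was a step from 3.72 ± 0.30 to 49.3 ± 0.65 CPM, and it was the 26th highest log2 difference of the 13029 genes. The value was lowest, 3.42, when a pseudocount of 1 CPM was added.

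In the siRNA experiment *ANXA10* was at 0.92 and 1.34 FPKM in siCTRL and at 2.44 and 2.67 FPKM in sip53 libraries. Both sip53 libraries were above both siCTRL libraries, at levels close to the lower end of the genes tested. The means were 1.13 ± 0.30 and 2.56 ± 0.16 FPKM (SD, n = 2), with a log2 difference of 1.13 (standard error 0.30) on the log2(FPKM + 0.1) scale, the 294th highest of 14274. The log2 difference was 0.75 with a pseudocount of 1 FPKM, and the gene was no longer called without siCTRL replicate 1, where it was 0.88. *ZMAT3* itself went from 12.0 and 13.62 FPKM in siCTRL to 3.16 and 1.97 FPKM in sip53 libraries.

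*ANXA9*, whose product is an atypical annexin with altered calcium-binding sites, was the other member at a low level. It lies on the plus strand of chromosome 1 (150982249 to 150995634). Its log2 CPM was 0.96, 0.89 and 0.73 in *ZMAT3*-WT and 1.07, 0.91 and 0.80 in *ZMAT3*-KO libraries, and the groups overlapped. The log2 difference of 0.07 (standard error 0.13) was smaller than the spread between replicates, and its sign turned without *ZMAT3*-KO replicate 1 (-0.0022). With siCTRL it was at 0.72 and 0.93 FPKM and with sip53 at 0.85 and 0.98 FPKM, again with overlap. So of the 2 annexin genes with the lowest levels, *ANXA10* differed in both experiments by more than its spread and *ANXA9* in neither.

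The sequences upstream of *ANXA10*, *ANXA1*, *ANXA3* and *ANXA2* are shown because the first 3 genes had the largest log2 differences in *ZMAT3*-KO cells in either direction, and *ANXA2*, the most abundant, differed least. Each is the 250 bases before the RefSeq start site (GRCh38.p14), written 5′ to 3′ on the strand of the gene. Capitals mark the letters TATAAA, the core of a TATA box, or the letters TGANTCA, the AP-1 motif that JUN and FOS proteins bind. The windows are chr4:168092287-168092536 (plus strand) for *ANXA10*, chr9:73151615-73151864 (plus strand) for *ANXA1*, chr4:78551520-78551769 (plus strand) for *ANXA3* and chr15:60397987-60398236 (minus strand) for *ANXA2*.
ANXA10: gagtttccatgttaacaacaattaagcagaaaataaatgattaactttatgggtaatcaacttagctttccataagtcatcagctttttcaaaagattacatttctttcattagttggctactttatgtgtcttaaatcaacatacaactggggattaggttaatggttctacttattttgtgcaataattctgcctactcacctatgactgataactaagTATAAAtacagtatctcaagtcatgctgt
ANXA1: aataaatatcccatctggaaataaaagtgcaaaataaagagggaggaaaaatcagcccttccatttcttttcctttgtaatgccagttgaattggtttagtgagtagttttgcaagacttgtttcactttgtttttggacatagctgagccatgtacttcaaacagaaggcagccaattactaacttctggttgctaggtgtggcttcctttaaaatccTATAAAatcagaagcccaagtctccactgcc
ANXA3: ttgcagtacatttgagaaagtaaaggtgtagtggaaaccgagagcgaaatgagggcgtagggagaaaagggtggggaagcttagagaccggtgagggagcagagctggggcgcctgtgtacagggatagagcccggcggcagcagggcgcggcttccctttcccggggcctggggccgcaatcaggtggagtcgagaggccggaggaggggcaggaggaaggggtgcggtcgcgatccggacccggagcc
ANXA2: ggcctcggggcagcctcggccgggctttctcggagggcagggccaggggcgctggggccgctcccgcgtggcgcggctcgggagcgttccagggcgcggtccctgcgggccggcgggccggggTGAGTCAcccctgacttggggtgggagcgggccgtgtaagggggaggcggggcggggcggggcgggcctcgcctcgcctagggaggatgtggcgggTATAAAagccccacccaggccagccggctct

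These windows differed in base composition. The G and C content was 31.2% for *ANXA10*, which placed it at percentile 2.16 of the 35116 windows of all genes, and 38.4% for *ANXA1* (percentile 10.1). It was 64.0% for *ANXA3* (percentile 64.4) and 78.0% for *ANXA2* (percentile 94.3), against a median of 58.0% for all windows. Among the 14 windows of the 10 annexin genes, those of *ANXA10* and *ANXA1* were the richest in A and T. The other annexin genes called higher in *ZMAT3*-KO cells, *ANXA4*, *ANXA5*, *ANXA6* and *ANXA7*, had windows of 56.4 to 78.8% G and C. Whether base composition goes with the differences was not tested. TATAAA was found at 29 to 24 bases before the start site of *ANXA10*, at 31 to 26 bases before those of *ANXA1* and *ANXA2*, and at 61 to 56 bases in 1 of the 3 windows of *ANXA11*. Of all windows 10.7% held it on either strand. TGANTCA was found in the *ANXA2* window alone among the 14, as TGAGTCA at 127 to 121 bases before the start, beside 6.57% of all windows. GGGCGG (GC box), which overlaps neither motif, was in 7 of the 14 windows, 3 times in that of *ANXA2*, beside 42.6% of all windows, and CCAAT in 4, among them that of *ANXA1*, beside 32.0%. A match is a run of letters and not a measured binding site.

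*ANXA1*, a partner of S100A11 that is known as a glucocorticoid-induced, anti-inflammatory protein, lies on the plus strand of chromosome 9 (73151865 to 73170393). Its log2 CPM was 8.54, 8.61 and 8.65 in *ZMAT3*-WT and 9.28, 9.34 and 9.36 in *ZMAT3*-KO libraries. The groups did not overlap, with means of 8.60 ± 0.051 and 9.33 ± 0.038 (SD, n = 3) and a log2 difference of 0.73 (standard error 0.032), the 408th highest of 13029. After transfection it was at 478 and 614.18 FPKM with siCTRL and at 513.79 and 398.75 FPKM with sip53. The siRNA groups overlapped, and their log2 difference of -0.26 (standard error 0.25) was within the spread between replicates.

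*ANXA2*, which forms a tetramer with S100A10 that bundles actin and binds plasminogen, lies on the minus strand of chromosome 15 (60347134 to 60402883). It was at 10.22, 10.25 and 10.25 log2 CPM in *ZMAT3*-WT and at 10.23, 10.22 and 10.23 log2 CPM in *ZMAT3*-KO libraries. The log2 difference was -0.0052 (standard error 0.024), the middle of the ranking of all 13029 genes, and it lay between -0.015 and -0.00020 under every alternative setting run. After transfection it was at 2266.39 and 2255.52 FPKM with siCTRL and at 1971.07 and 2067.17 FPKM with sip53. These groups did not overlap, but the log2 difference of -0.16 (standard error 0.21) was not called. *ANXA2* has processed pseudogenes that share its sequence: *ANXA2P2* was listed at 2.61 to 2.91 log2 CPM over the 6 *ZMAT3* libraries and at 11.1 to 18.1 FPKM over the siRNA libraries, and how reads were split between the copies is not given in the sources used here.

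*ANXA11*, a partner of S100A6 and of the calcium sensor ALG-2 (gene *PDCD6*) that links RNA granules to lysosomes, lies on the minus strand of chromosome 10 (80150889 to 80205572). Its log2 CPM was 7.41, 7.35 and 7.37 in *ZMAT3*-WT and 7.33, 7.28 and 7.33 in *ZMAT3*-KO libraries. The groups lay just apart, with a log2 difference of -0.06 (standard error 0.029) that was not called. Its siRNA replicates were the farthest apart of the 10 genes, at 202.9 and 117.58 FPKM with siCTRL and at 96.05 and 207.94 FPKM with sip53. The sign of its difference, -0.13 (standard error 0.45) on the log2(FPKM + 0.1) scale, turned without siCTRL replicate 1 (0.27) or without sip53 replicate 1 (0.43), so no direction is given.

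*ANXA3*, whose product binds phospholipids and has been studied as a marker of several carcinomas, lies on the plus strand of chromosome 4 (78551747 to 78610451). It was the member with the lowest log2 difference in *ZMAT3*-KO cells. Its log2 CPM was 7.70, 7.63 and 7.73 in *ZMAT3*-WT and 6.73, 6.71 and 6.74 in *ZMAT3*-KO libraries. The means were 7.69 ± 0.054 and 6.73 ± 0.015 (SD, n = 3), and the log2 difference was -0.96 (standard error 0.032), the 229th lowest of 13029. With siRNA it was at 249.01 and 162.52 FPKM with siCTRL and at 206.08 and 265.78 FPKM with sip53. The groups overlapped, and the log2 difference of 0.22 (standard error 0.28) was -0.09 without siCTRL replicate 2.

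*ANXA5*, the phosphatidylserine-binding annexin that forms ordered arrays on membranes, lies on the minus strand of chromosome 4 (121667946 to 121696995). Its log2 CPM was 7.98, 7.94 and 7.93 in *ZMAT3*-WT and 8.32, 8.32 and 8.34 in *ZMAT3*-KO libraries. The groups did not overlap and the log2 difference was 0.38 (standard error 0.026), or 1.30-fold. With siCTRL it was at 257.34 and 207.91 FPKM and with sip53 at 301.4 and 439.29 FPKM, with both sip53 libraries above both siCTRL libraries. The log2 difference of 0.65 (standard error 0.26) was not called, except with libraries centred on the median gene or without sip53 replicate 1.

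*ANXA4*, a membrane-bound annexin of secretory epithelia, lies on the plus strand of chromosome 2 (69644425 to 69827112) and overlaps *AAK1* on the minus strand. Its log2 CPM was 5.39, 5.35 and 5.33 in *ZMAT3*-WT and 5.49, 5.44 and 5.49 in *ZMAT3*-KO libraries. The groups did not overlap, with a log2 difference of 0.12 (standard error 0.036), which was no longer called without *ZMAT3*-WT replicate 3 or without *ZMAT3*-KO replicate 1. The siRNA libraries had it at 81.15 and 78.83 FPKM with siCTRL and at 44.7 and 47.47 FPKM with sip53. Here the groups were far apart and each pair of replicates close, with means of 80.0 ± 1.6 and 46.1 ± 2.0 FPKM (SD, n = 2) and a log2 difference of -0.79 (standard error 0.17), the 902nd lowest of 14274. The 2 experiments were normalized separately, and whether the difference of *ANXA4* differed between them was not tested. Whether the siRNA values were counted with strand is not given in the sources used here, so reads of *ANXA4* and of *AAK1* may not be told apart where the 2 genes overlap.

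*ANXA6* and *ANXA7* showed small log2 differences. *ANXA6*, which carries a duplicated annexin core and acts in cholesterol traffic and membrane repair, lies on the minus strand of chromosome 5 (151100706 to 151157815). It was at 6.66, 6.54 and 6.58 log2 CPM in *ZMAT3*-WT and at 6.73, 6.74 and 6.72 log2 CPM in *ZMAT3*-KO libraries, with a log2 difference of 0.14 (standard error 0.034). *ANXA7*, also called synexin for its fusion of secretory vesicles, lies on the minus strand of chromosome 10 (73375101 to 73414076). It was at 6.99, 6.96 and 6.96 log2 CPM in *ZMAT3*-WT and at 7.17, 7.16 and 7.15 log2 CPM in *ZMAT3*-KO libraries, with a log2 difference of 0.19 (standard error 0.027). Neither gene's *ZMAT3* groups overlapped. With siCTRL *ANXA6* was at 94.83 and 83.26 FPKM and with sip53 at 94.52 and 124.61 FPKM. *ANXA7* was at 69.6 and 72.63 FPKM with siCTRL and at 81.48 and 68.84 FPKM with sip53. The siRNA groups of both genes overlapped, and the log2 difference of *ANXA7* (0.07) was -0.05 without sip53 replicate 1.

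**Figure D2:**
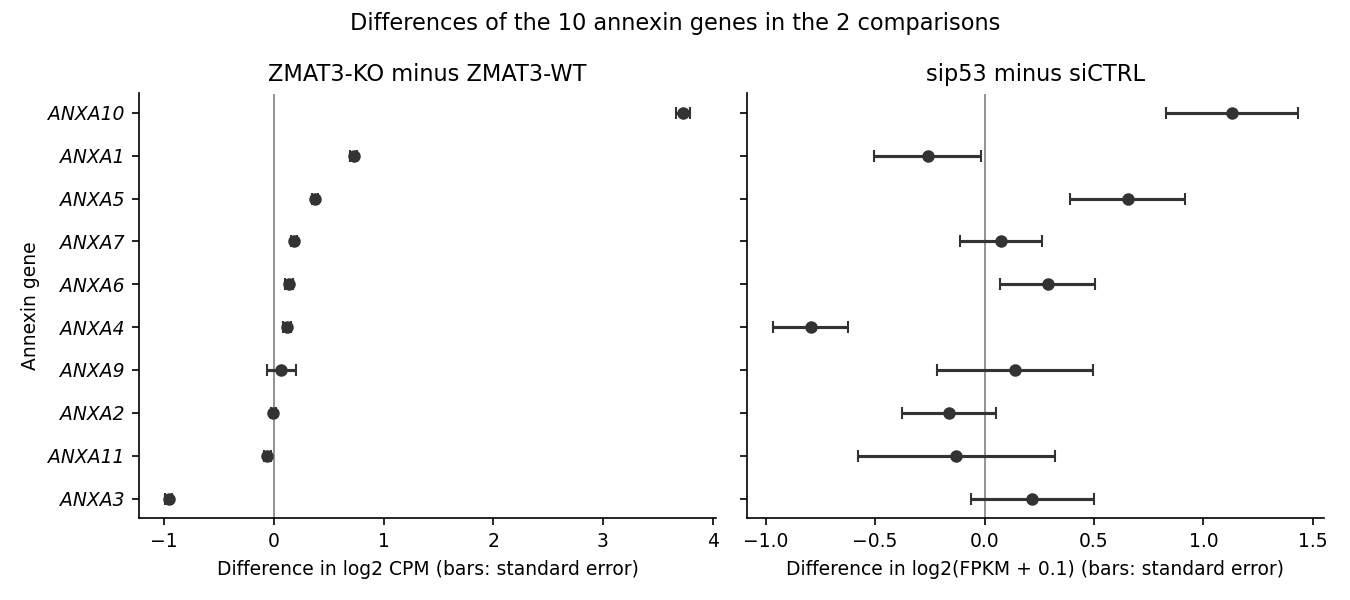
Log2 difference of each annexin gene (points) with its limma standard error (bars), *ZMAT3*-KO minus *ZMAT3*-WT in log2 CPM on the left (3 libraries a group) and sip53 minus siCTRL in log2(FPKM + 0.1) on the right (2 libraries a group), on separate axes. *ANXA10* lies at 3.73 and 1.13, *ANXA3* at -0.96 and 0.22, and the bars of the siRNA experiment are the wider.

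Summed on the linear scale, the 10 annexin genes held 2482 ± 17.5 CPM in *ZMAT3*-WT and 2775 ± 18.6 CPM in *ZMAT3*-KO cells (SD, n = 3), a difference of 292.5 CPM. CPM is not per length, and the libraries had been put on one distribution. The sum is thus the family's part of the normalized total and not of the reads counted. *ANXA1* gave the largest part of the difference, 253.9 CPM, and *ANXA5* added 73.8 CPM and *ANXA10* 45.6 CPM, while *ANXA3* went from 206 to 106 CPM. *ANXA10*, with the largest fold, thus gave a smaller part than *ANXA1* or *ANXA5*. Its share of the family sum went from 0.136 to 0.157% in *ZMAT3*-WT to 1.76 to 1.79% in *ZMAT3*-KO libraries. The share of *ANXA2*, whose own level hardly differed, was 48.2 to 49.1% in *ZMAT3*-WT and 43.1 to 43.6% in *ZMAT3*-KO libraries, since the family sum was larger.

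Levels of different genes can be compared only per length, in FPKM. In siCTRL cells the order was *ANXA2* (mean 2261 FPKM, percentile 99.6 of the genes tested), *ANXA1* (546 FPKM), *ANXA5* (233 FPKM), *ANXA3* (206 FPKM), *ANXA11* (160 FPKM), *ANXA6* (89.1 FPKM), *ANXA4* (80.0 FPKM), *ANXA7* (71.1 FPKM), *ANXA10* (1.13 FPKM, percentile 10.5) and *ANXA9* (0.825 FPKM). So 8 members stood at or above percentile 89.2 and a wide gap set *ANXA10* and *ANXA9* apart from them. Of the 9 neighbouring pairs in this order, 6 did not overlap in their 2 libraries. *ANXA5* and *ANXA3*, *ANXA3* and *ANXA11*, and *ANXA10* and *ANXA9* overlapped and cannot be put in order. With sip53 the order was the same except that *ANXA7* (75.2 FPKM) stood above *ANXA4* (46.1 FPKM), and *ANXA10* (2.56 FPKM, percentile 21.7) was clear of *ANXA9* (0.915 FPKM). There *ANXA1* and *ANXA5*, *ANXA3* and *ANXA11*, and *ANXA11* and *ANXA6* overlapped. Other family rows of the siRNA table, *ANXA8*, *ANXA8L1*, *ANXA8L2*, *ANXA2P1* and the receptor gene *ANXA2R*, were below 1 FPKM in all 4 libraries.

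**Figure D3:**
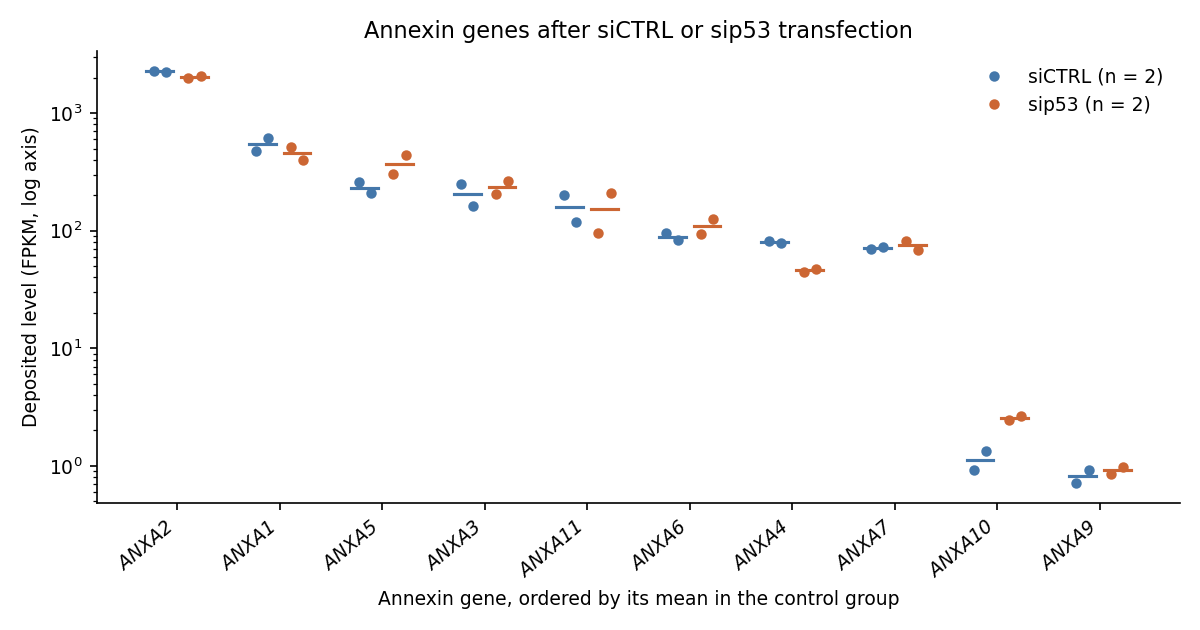
Deposited FPKM (log axis) of the 10 annexin genes, ordered by their mean with siCTRL, in each of 2 siCTRL (blue) and 2 sip53 (orange) libraries; points are libraries and bars are group means. *ANXA2* lies between 1971 and 2266 FPKM in the 4 libraries, *ANXA10* and *ANXA9* lie near 1 to 3 FPKM, and the sip53 points of *ANXA4* lie below and those of *ANXA10* above the siCTRL points.

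In the siRNA experiment a gene was called at a limma p of 0.05, unadjusted. By this rule 1 of the 10 annexin genes was higher (*ANXA10*), beside 5.86% of the 14274 genes tested, and 1 was lower (*ANXA4*), beside 9.28%. None passed an adjusted p of 0.05, beside 0.273% of all genes, and none did under the 9 or 10 alternatives run for each gene, which do not include the crossed pairing of replicate numbers. The sip53 and siCTRL libraries did not overlap for 4 of the 10 (*ANXA2*, *ANXA4*, *ANXA5* and *ANXA10*), beside 46.4% of all genes. The median log2 difference was 0.11, beside -0.040 over all genes. The median gene of the sip53 libraries was 0.076 lower on the log2 scale, and with libraries centred on the median gene the calls over all genes were 1120 higher and 1048 lower in place of 836 and 1325. Of the annexin genes *ANXA5* and *ANXA10* were then higher and *ANXA4* lower.

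The genes whose values over the 10 libraries were nearest to those of *ANXA10* were found by the Euclidean distance, each library taken as its log2 value minus the mean of its control group, over the 12055 genes tested in both experiments. They were *TMEM200A* (distance 1.24), *PKIB* (1.61), *PRPS1* (1.84), *MMP14* (1.89) and *DPP4* (1.90). *TMEM200A* encodes a membrane protein and *PKIB* an inhibitor of protein kinase A. Their log2 differences were 3.25 and 2.85 in *ZMAT3*-KO and 0.53 and 0.95 in sip53 cells. *PRPS1*, a synthetase of the nucleotide precursor phosphoribosyl pyrophosphate, *MMP14*, a membrane-bound matrix metalloproteinase, and *DPP4*, a cell-surface dipeptidase, had log2 differences of 4.36, 3.86 and 2.80 in *ZMAT3*-KO and of 0.12, -0.02 and 0.48 in sip53 cells. All 5, like *ANXA10*, had a larger log2 difference in *ZMAT3*-KO than in sip53 cells, and that of *PKIB* in sip53 cells was the closest to the 1.13 of *ANXA10*. The points share their libraries and the nearest genes were chosen from them, so these values are a description.

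**Figure D4:**
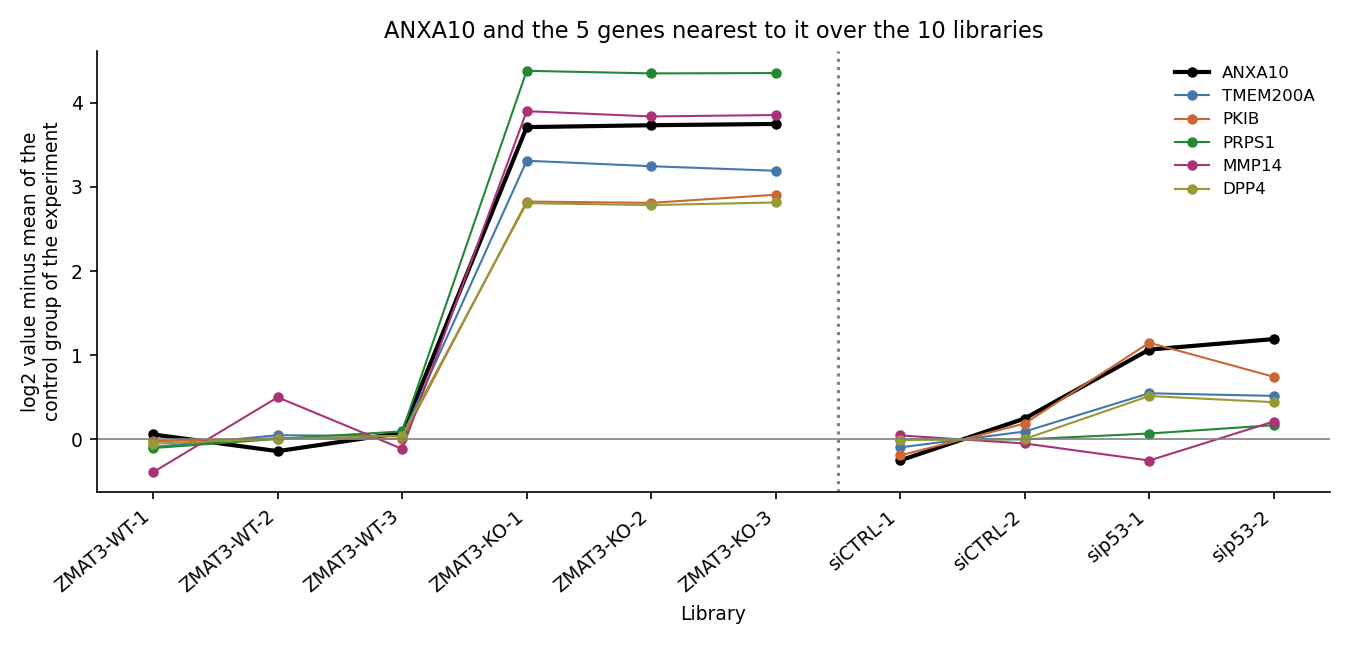
Log2 value of *ANXA10* (black) and of the 5 genes nearest to it, minus the mean of the control group of the same experiment, in each of the 10 libraries, with the *ZMAT3* experiment left and the siRNA experiment right of the dotted line; lines only join the points of a gene. All 6 genes lie between 2.78 and 4.38 in the *ZMAT3*-KO libraries, and *ANXA10* lies at 1.07 and 1.19 in the sip53 libraries.

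Genes that annexins work with were described from 3 lists. Of 17 binding partners, 12 had values in the *ZMAT3* experiment, of which 6 rose and 3 fell in *ZMAT3*-KO cells and 3 were not called, with a median log2 difference of 0.09. Over all genes 28.7% were called higher and 30.1% lower, with a median of -0.0052. *S100A4*, a motility-linked S100 protein, was at 5.32, 5.19 and 5.28 log2 CPM in *ZMAT3*-WT and at 6.89, 6.83 and 6.95 log2 CPM in *ZMAT3*-KO libraries. Its rise of 1.63 on the log2 scale (standard error 0.042, limma adjusted p = 8.0e-12) was the largest of the list. The S100 partners of ANXA11, ANXA1 and ANXA2 rose too, *S100A6* by 0.57, *S100A11* by 0.36 (limma adjusted p = 1.0e-05) and *S100A10* by 0.17 on the log2 scale (limma adjusted p = 0.0016). So *S100A10* rose while the log2 difference of *ANXA2* was within its spread, and *S100A11* rose beside the higher values of *ANXA1*. The partners that fell were *AHNAK*, a giant scaffold that binds the ANXA2 tetramer (log2 difference -0.38, limma adjusted p = 1.8e-05), *PDCD6* (-0.17, limma adjusted p = 0.0016) and *SRI*, the calcium sensor sorcin that binds ANXA7 (-0.12, limma adjusted p = 0.013).

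Of 20 genes of plasma membrane repair, 10 rose, 7 fell and 3 were not called in *ZMAT3*-KO cells, with a median of 0.07 on the log2 scale. *PDCD6IP*, the ESCRT adaptor ALIX that PDCD6 recruits, was at 7.50, 7.49 and 7.54 log2 CPM in *ZMAT3*-WT and at 6.36, 6.40 and 6.39 log2 CPM in *ZMAT3*-KO libraries, a 2.18-fold fall (log2 difference -1.13, limma adjusted p = 7.3e-12). *TRIM72*, known as the muscle repair protein mitsugumin, fell 1.70-fold (-0.76, limma adjusted p = 1.2e-08), and *MYOF*, a ferlin that fuses membranes, fell by 0.49 on the log2 scale. *EHD2*, a caveolar ATPase (0.52), *SMPD1*, the acid sphingomyelinase (0.40), and *CHMP4A*, an ESCRT-III subunit (0.33), had the largest rises. The 2 called changes of the list beyond 1.5-fold were those of *PDCD6IP* and *TRIM72*. Of all genes 28.7% were called higher and 30.1% lower, or 4.6% and 4.37% with a 1.5-fold change required as well. Nothing is read from the counts of the list.

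Of 17 genes that set the sidedness of phosphatidylserine, the lipid that annexins bind, 14 had values, of which 6 rose, 4 fell and 4 were not called, with a median of 0.03. The flippase genes moved apart. *ATP11B* rose from a range of 5.45 to 5.53 to one of 6.78 to 6.87 log2 CPM (log2 difference 1.34, limma adjusted p = 9.5e-12), whereas *ATP8A1*, at a low level, fell by 1.27 (limma adjusted p = 0.00032). Among the scramblase-family genes *PLSCR3* rose by 0.57 and *PLSCR1* fell by 0.35, and *PISD*, which turns phosphatidylserine into phosphatidylethanolamine, fell by 0.15. Over the 3 lists together 22 of 46 genes rose and 14 fell, beside 28.7% and 30.1% of all genes. Since the lists too were chosen with earlier results of these data known, nothing is read from these counts.

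In sip53 cells 2 of the 47 partner genes tested were higher at an unadjusted limma p of 0.05, beside 5.86% of all genes, and 4 were lower, beside 9.28%. These shares are near or below those of all genes, and none of the 47 passed an adjusted p of 0.05. Of the 13 binding partners tested 1 was higher and none lower, and *S100A10* (-0.39), *S100A11* (-0.41), *PDCD6* (-0.22) and *SRI* (0.41) were not called. Of the 20 repair genes 3 were lower, the calpain subunit gene *CAPN2* (log2 difference -0.70), *SMPD1* (-0.68) and *MYOF* (-0.64), each with a limma adjusted p of 0.21. Of the 14 sidedness genes *PLSCR1* was lower, at 117.16 and 89.76 FPKM with siCTRL and at 36.46 and 33.17 FPKM with sip53 (-1.56, limma adjusted p = 0.084), and *ATP8B1* was higher (0.58, limma adjusted p = 0.30). The 2 higher and 4 lower calls became 2 and 1 without siCTRL replicate 1 and 1 and 2 without siCTRL replicate 2, and were 1 higher and 5 lower without sip53 replicate 1 and likewise without sip53 replicate 2. *MYOF* and *PLSCR1* were lower in both experiments. *SMPD1* and *CAPN2* rose in *ZMAT3*-KO cells (*CAPN2* by 0.11, limma adjusted p = 0.0022) and were lower in sip53 cells.

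**Figure D5:**
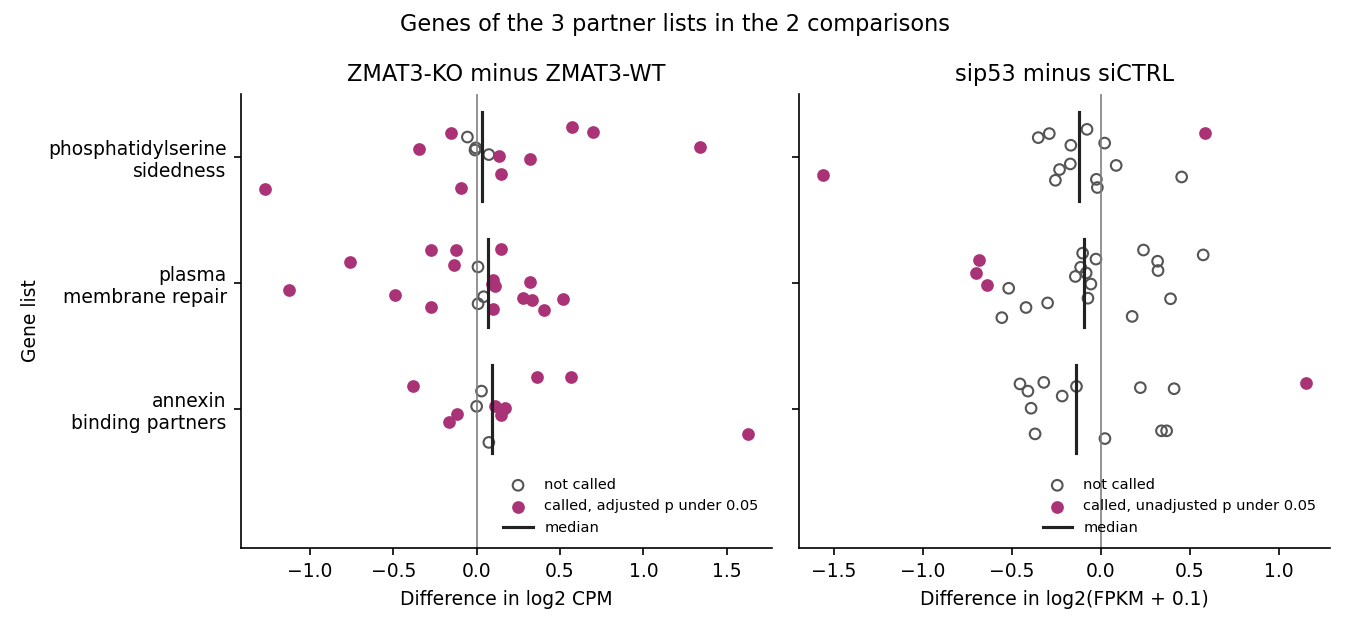
Log2 difference of each gene of the 3 lists of annexin partner genes, *ZMAT3*-KO minus *ZMAT3*-WT (left, log2 CPM) and sip53 minus siCTRL (right, log2(FPKM + 0.1)); filled points were called, open points were not, and black bars are medians. The medians lie between 0.03 and 0.09 on the left and between -0.14 and -0.09 on the right, with called genes on both sides of 0.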

How the data were processed

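RNA-seq libraries of HCT116 cells were grouped by their labels, which the submitters describe as biological triplicates (*ZMAT3*-WT, *ZMAT3*-KO) and duplicates (siCTRL, sip53). For the *ZMAT3* experiment the authors used Cutadapt for trimming, STAR for alignment to hg38 and RSEM for quantification, and deposited log2 CPM values that share one distribution. For the siRNA libraries the values that the authors deposited were read as FPKM, since over 438 single-transcript genes their ratio to CPM fell with length (log2 slope -0.75). How these were made is not given in the sources used here, although the submitters' processing notes name CASAVA 1.8.2, TopHat2 2.0.8 and FastQC 0.11.2 without roles. Deposited fold changes and p-values were not used. No counts were at hand, so the depth and its precision are unknown.

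Each experiment was fitted over all its genes by limma 3.58.1 (R 4.3.3), with a variance trend in eBayes, two-sided p-values and Benjamini-Hochberg adjustment, on the deposited log2 CPM or on log2(FPKM + 0.1) for 14274 genes whose mean reached 0.5 FPKM. Log2 differences of low FPKM are understated by the pseudocount. Exact permutation tests of 3 libraries against 3, or 2 against 2, cannot reach a p of 0.05. Replicate numbers did not pair the *ZMAT3* libraries (correlations of their deviations -0.09 to -0.02) or the siRNA libraries (-0.62). Alternatives were a pseudocount of 1, other filters, leaving out each library, centring on the median gene, a fit without the variance trend and a block for the replicate number.

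The annexin genes and the lists were chosen with earlier results of these data known. Named were all annexin rows, of each partner list up to 3 called genes with the largest difference in each direction, *S100A10*, *S100A11*, *PDCD6* and *SRI* always, *ZMAT3* and *CDKN1A* as label checks, and the 5 genes nearest to *ANXA10*. Some genes that this rule names are not reported here. Markers and neighbouring genes were added to these. Positions are from GENCODE release 44 (hg38), and upstream sequences from RefSeq (GRCh38.p14), which held 14 windows for all 10 annexin genes, searched on both strands. Protein sequences were not analysed here. Tables were handled with Python 3.11.15, pandas 2.3.3 and numpy 2.4.6, and figures drawn with matplotlib 3.10.9.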

Additional observations from a re-analysis of the deposited data

How the results depend on the processing

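Of the log2 differences of the annexin genes under the alternatives, 204 of 208 moved by less than 1 SD between replicates and 4 moved by more, and no called one changed sign. The filters, the block and the fit without the variance trend cannot change a log2 difference. Leaving out a library can shift it only within that spread. All 4 that moved did so with a pseudocount of 1 or with centring, so the 204 are no measure of stability. Of the counts of calls 131 stayed within 1.5 times the reported value and 31 did not, 30 of them in the siRNA experiment. In the *ZMAT3* experiment a pseudocount of 1 CPM gave 397 genes higher by 1.5-fold in place of 599. In the siRNA experiment the genes passing an adjusted p numbered 39, and 0 without a filter on low FPKM, 21 with centring, 15 without the variance trend and 2 to 30 with each library left out (2 without siCTRL replicate 1, 11 without siCTRL replicate 2 and 20 without sip53 replicate 2). At an unadjusted p 836 were higher and 1325 lower, against 482 to 720 and 635 to 1171 with each library left out, the lowest without siCTRL replicate 2 and without siCTRL replicate 1, and against 555 higher at a mean of at least 5 FPKM. Annexin genes called higher numbered 1, but 0 at a mean of at least 5 FPKM, which leaves out *ANXA10*, 2 with centring and 0 to 2 with each library left out. The partner genes, 2 higher and 4 lower, were 1 higher without a filter, 4 higher with centring, and 1 to 2 higher and 1 to 5 lower with each library left out. The cause of these shifts was not tested, beyond the smaller number of samples.

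The replicate number as a block, which the data do not show to pair the samples, gave 434 higher and 650 lower genes in the siRNA experiment, 65 at an adjusted p, and 1 higher and 1 lower partner gene, and changed no annexin call. A crossed pairing, chosen after seeing the data, gave 2410 higher and 3128 lower genes and 3642 at an adjusted p.

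With 3 or 2 libraries a group and no depth known, low levels such as those of *ANXA9* and *ANXA10* are the least firm. Calls in the *ZMAT3* experiment rest on 1 clone of each genotype.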

Other observations

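The genes next to every annexin gene were looked up after the values had been seen. In *ZMAT3*-KO cells *GMCL1* was higher (log2 difference 0.12), as was *ANXA4* beside it, while *TNIP1* was lower (-0.19) beside the higher *ANXA6*. *CERS2* (0.13) and *MAT1A* (-1.47) were called beside *ANXA9* and *ANXA11*, which were not. Of all genes 28.7% were called higher and 30.1% lower, and whether neighbours go together was not tested. Given in full are those of the 2 annexin genes of chromosome 4 with the largest log2 differences. *FRAS1*, an extracellular matrix gene that ends 7478 bases from *ANXA3*, was at 5.44, 5.56 and 5.59 log2 CPM in *ZMAT3*-WT and at 4.81, 4.92 and 4.78 log2 CPM in *ZMAT3*-KO libraries, so that it was lower beside *ANXA3* (log2 difference -0.69, limma adjusted p = 1.3e-07). *BMP2K*, on the other side of *ANXA3*, did not pass in *ZMAT3*-KO cells (0.0024, limma adjusted p = 0.97), and was at 13.08 and 12.07 FPKM in sip53 against 6.49 and 5.4 FPKM in siCTRL libraries (log2 difference 1.07, limma adjusted p = 0.12). *SPOCK3*, 857741 bases from *ANXA10*, was at -0.16, 0.19 and 0.23 log2 CPM in *ZMAT3*-WT and at 1.74, 1.65 and 1.87 log2 CPM in *ZMAT3*-KO libraries (log2 difference 1.67, limma adjusted p = 7.1e-07). In sip53 cells *FRAS1* (-0.22, limma adjusted p = 0.70) and *SPOCK3* (0.58, limma adjusted p = 0.55) did not pass. *DDX60*, an interferon-induced helicase gene 28555 bases from *ANXA10* on its other side, did not pass in *ZMAT3*-KO cells (0.34, limma adjusted p = 0.050). In sip53 cells it was at 2.48 and 1.41 FPKM against 8.42 and 14.19 FPKM with siCTRL (-2.48, limma adjusted p = 0.10), while *ANXA10* was higher there.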
